A study of Solanum lycopersicum with 18 samples.

Results

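Transcripts for HSP70 proteins outside the endoplasmic reticulum (ER) were followed by RNA-seq in heated and unheated tomato leaves, through 10 genes of the family. These were picked by identifier from a list of HSP70 and HSC70 genes of the cytosol, plastid and mitochondrion that was compiled for this work. All 10 were found among the 35821 genes of the deposited count table, and 9 of them had enough reads to be tested (at least 50 counts in at least 2 libraries, as did 15312 genes in all). The fourth leaf was taken from Moneymaker plants 4 weeks old, which had grown under long days at 24 °C and were either moved to 45 °C for 1 h or sampled without heat (0 h). The plants were 2 transgenic hsfa1a knock-down lines, called CS2 and CS3 in the table, and wild type (WT), with 3 libraries for each line and time, 18 in all. Both knock-down lines are in the Moneymaker background, are described as independent and carry a hairpin RNA against the heat stress transcription factor HSFA1a. The promoter of the hairpin and the number of plants behind a library are not given in the sources used here, so p-values measure the spread between these libraries. The paper's reporting summary describes biological replicates as random pools of seedlings. The paper's methods state 2 biological replicates where the labels give 3, and the labels speak of line 1 and line 2 without saying which is CS2.

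HSP70 proteins are ATP-driven chaperones that bind exposed hydrophobic stretches of unfolded or newly made proteins and release them to fold. J proteins deliver clients and trigger ATP hydrolysis, and nucleotide exchange factors reset the cycle. Plants hold separate HSP70 proteins in the cytosol and nucleus, the plastid, the mitochondrion and the ER. Some are cognate forms (HSC70), which are made in unstressed cells, and others accumulate mainly after heat, when heat stress factors bind their promoters. The files pair no identifier with a name or a compartment. The order of neighbouring genes, set against a RefSeq gene table, gave a symbol for 3 members: hsc70.3 for Solyc04g011440, Hsc70.1 for Solyc06g076020 and Hsc70.2 for Solyc10g086410. The other 7 are given by identifier, and no compartment is assigned to any member.

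Total counts were between 1713285 and 3669618 per library, with the highest total in CS2 1 h replicate 3. Depth differed between the times: 8 of the 9 libraries at 1 h, all but that one, had at most 2393059 counts, against at least 2676951 in every library at 0 h. Levels are given as CPM, counts per 1000000 of the TMM-adjusted library total. HSFA1a, placed by gene order at Solyc08g005170, stood at 86.9 to 122 CPM in the libraries labelled CS2 and 96.9 to 133 CPM in those labelled CS3 at 1 h, against 61.9 to 78.1 CPM in WT. At 0 h it had 62.2 to 72.8, 67.4 to 90.3 and 66.6 to 84.5 CPM in CS2, CS3 and WT. At 1 h the targeted gene thus went against the knock-down labels. On the log2 scale CS2 lay above WT by 0.60 and CS3 by 0.72, and both differences passed the test described below. At 0 h the ranges overlapped WT, with differences of -0.13 (CS2) and 0.06 (CS3) that did not pass. The paper states that the hairpin reduces the expression of HSFA1a, and these counts show no reduction at either time. That bears on every direction given between the lines and WT, and the names CS2 and CS3 stand for libraries labelled so. Whether reads of the hairpin were counted on the gene was not tested. Leaf identity was checked with 8 chlorophyll a/b-binding protein genes matched by symbol: 8 of 8 had counts in every library. Their summed level was 1559 to 3120 CPM in CS2, 2234 to 2744 CPM in CS3 and 2061 to 2334 CPM in WT at 1 h, and at 0 h 1380 to 1519, 1405 to 1854 and 1472 to 1871 CPM. The highest counts of these genes were 0.492 to 0.811 of their length, so the counting limit described below bears on their levels too. Over all tested genes 24.2% were higher and 25.2% lower at 1 h than at 0 h in WT, by edgeR's quasi-likelihood test with Benjamini-Hochberg adjustment and a threshold of 0.05, which is the test used throughout. With scaling by library size only, the split of 3701 higher and 3862 lower genes in WT became 2685 and 4766, and the median log2 fold change of all tested genes was -0.138. The same change of scaling gave 3154 higher and 5383 lower genes in CS2 (4397 and 4011 with TMM) and 2832 higher and 5389 lower genes in CS3 (4086 and 4065 with TMM), with medians of -0.178 and -0.186. In WT the split was 2872 to 4583 with upper-quartile scaling.

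The members separated into 6 that were induced and 3 that were constitutive, with 1 too low to test. A member was called induced when its log2 fold change in WT, 1 h over 0 h, was at least 1 with an adjusted p under 0.05, and constitutive when it was tested and not induced. The induced members were Solyc04g011440 (hsc70.3), Solyc03g117630, Solyc11g020040, Solyc11g066100, Solyc06g076020 (Hsc70.1) and Solyc10g086410 (Hsc70.2). All 3 members with an Hsc70 symbol were thus in the induced class, although that name stands for cognate forms. The constitutive members were Solyc11g066060, Solyc09g010630 and Solyc01g106260. Closest to the limit were Solyc10g086410 inside it, at 2.24, and Solyc11g066060 outside it, at 0.71. Because the classes were drawn from the WT contrast, WT values describe them and do not test them. The members sit on 8 chromosomes of the M82 assembly, 3 of them on chromosome 11. Solyc11g066060 and Solyc11g066100, a constitutive and an induced member, lie on opposite strands 28867 bases apart with 3 genes between them.

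**Figure D1:**
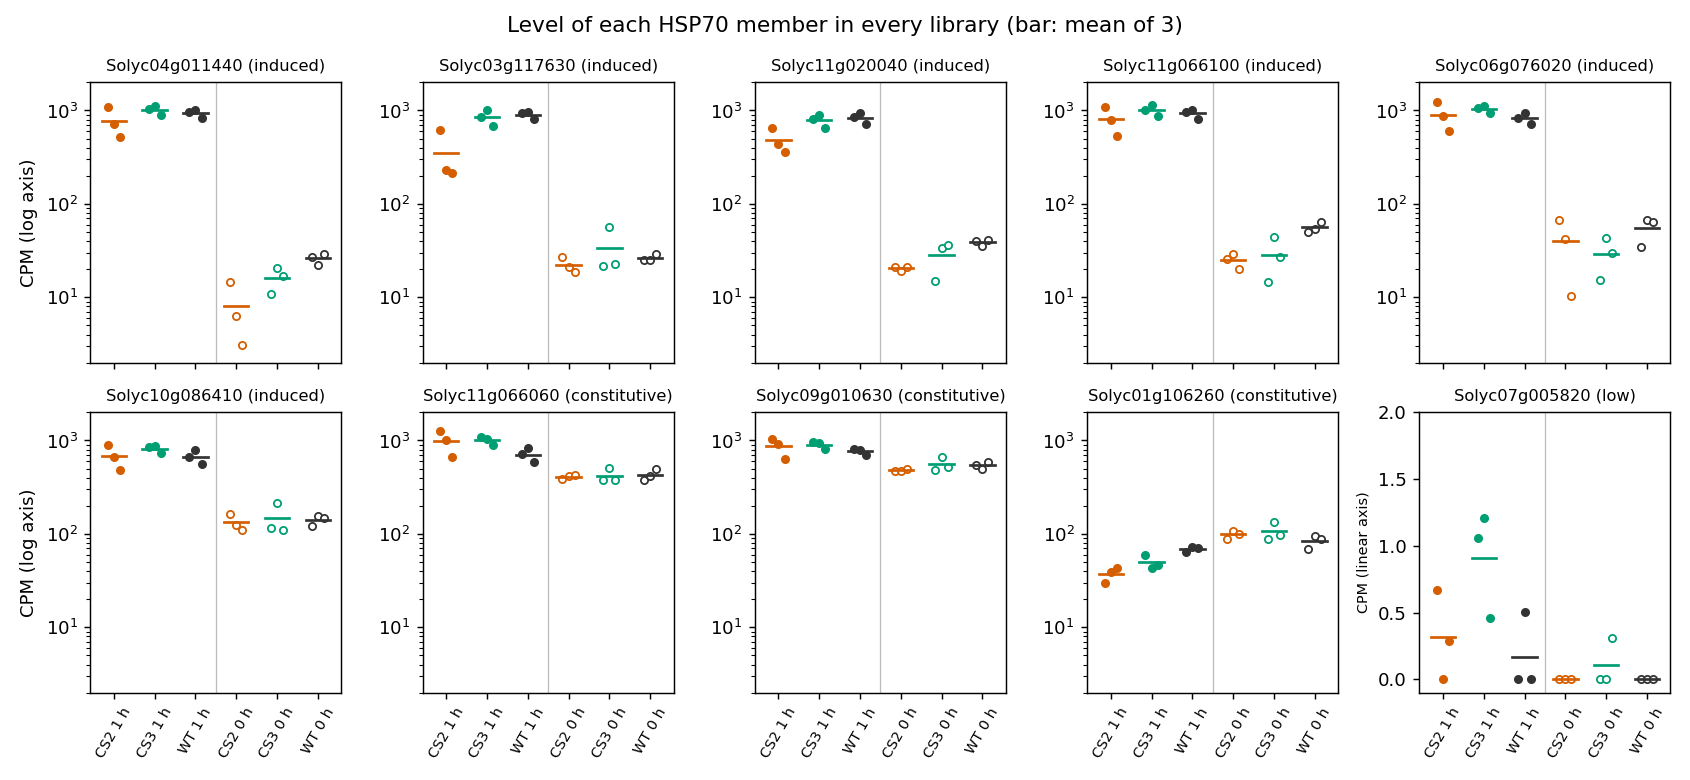
Level of each member in every library, in CPM on a log axis (linear for Solyc07g005820), with filled points at 1 h, open points at 0 h and a bar at the mean of 3 libraries. The 6 induced members sit between 212 and 1225 CPM at 1 h and between 3.10 and 214 CPM at 0 h, whereas Solyc11g066060 and Solyc09g010630 are at 373 CPM or above in every library.

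Levels in WT were ordered differently with and without heat. At 1 h, per kilobase of gene span with introns included, Solyc03g117630 had 460 CPM and Solyc11g066100 364 CPM, each apart from the next, and the following 6, from Solyc04g011440 at 287 to Solyc10g086410 at 197 CPM per kilobase, overlapped from neighbour to neighbour. Solyc01g106260 was last at 15.5 CPM per kilobase. At 0 h Solyc09g010630 averaged 152 CPM per kilobase and Solyc11g066060 145 CPM per kilobase, and their ranges overlapped. Solyc10g086410 followed at 41.7 CPM per kilobase, below both and above all others. Solyc11g066100 (21.99), Solyc01g106260 (18.7), Solyc06g076020 (17.8) and Solyc03g117630 (13.4 CPM per kilobase) came next, each with a range that overlapped that of its neighbour in this order. Solyc11g020040 (9.09) and Solyc04g011440 (8.08 CPM per kilobase) were lowest of the tested members and overlapped each other. Summed over the 10 members, the share of all counts was 0.534% ± 0.153 in CS2, 0.689% ± 0.0735 in CS3 and 0.618% ± 0.061 in WT at 1 h (SD, n = 3), against 0.129% ± 0.00417, 0.142% ± 0.0305 and 0.143% ± 0.0123 at 0 h.

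One feature of the counts bears on these levels. Reads were single-end and duplicates had been removed, so that reads starting at the same base were counted once and a gene can hold at most about as many counts as it has bases. The lengths are gene spans with introns, where few reads from mature transcripts start, so that for a gene with introns the limit lies below its span. The highest count of a tested gene was 0.0553 of its length in the median, and 6.98% of tested genes reached 0.3. Of the 9 tested members 8 did, all but Solyc01g106260, whose highest count was 0.0915 of its length. Solyc03g117630 came nearest to 1, with 1811, 1892 and 1850 counts on its 1965 bases in WT at 1 h. For Solyc11g066100, counts in the 9 libraries at 1 h differed by a factor of 1.22 while the library totals differed by 2.14 and its CPM by 2.18, and for Solyc06g076020 the counts differed by 1.31 at 0.519 to 0.679 counts per base. In CS2 1 h replicate 3, the library with the highest total, 8 of 9 members had the highest count and 8 of 9 the lowest CPM of the CS2 libraries at 1 h. At 0 h the 6 induced members stayed at 0.183 counts per base or less, whereas Solyc11g066060 and Solyc09g010630 were at 0.405 to 0.532. For a gene whose counts no longer follow depth, the smaller totals at 1 h alone give a higher CPM. Each count was therefore also corrected for positions already filled, taking the span as the limit, which is too small a correction for genes with introns. Corrected heat responses are given for every tested member, and in the comparisons of lines corrected values are given for the members that were called or came to be called. Alignments of low mapping quality had been left out as well, so that members alike in sequence may have lost reads that align equally well to several of them, and how many was not measured.

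**Figure D2:**
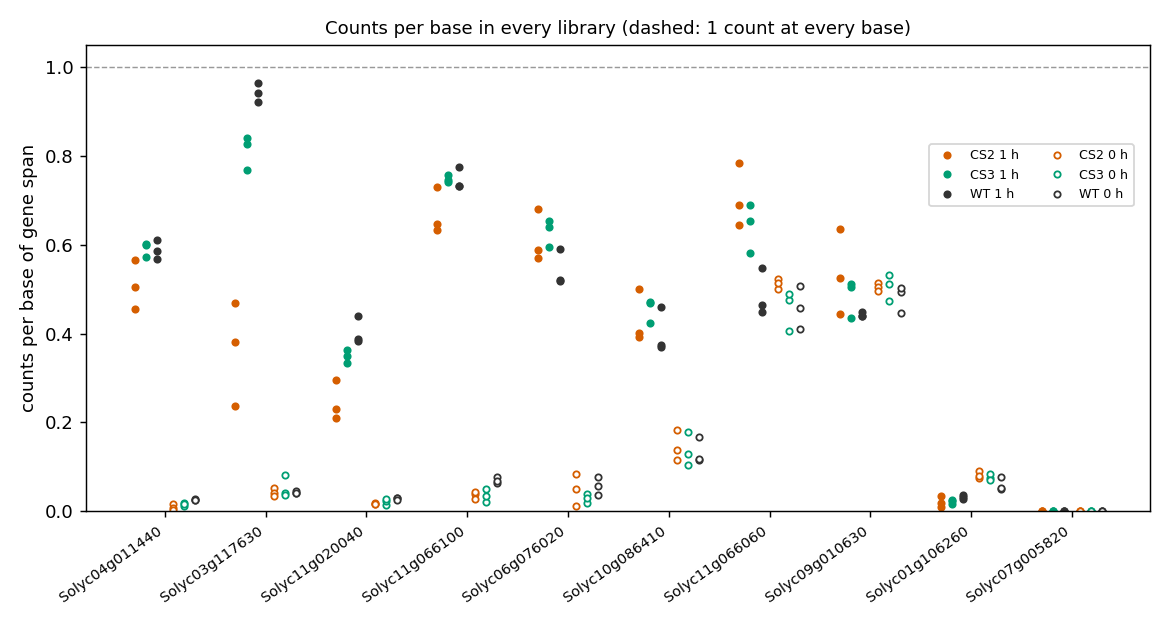
Counts per base of gene span for the 10 members, 1 point per library, filled at 1 h and open at 0 h. The dashed line marks 1 count at every base. Solyc03g117630 reaches 0.963 in WT at 1 h, and Solyc11g066060 and Solyc09g010630 hold 0.405 or more in every library at both times.

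Solyc04g011440 (hsc70.3; chromosome 4, 3972510 to 3975750, plus strand) had the largest heat response in WT among the tested members, although with the correction for filled positions its log2 fold change in WT was 5.74, below the 6.64 of Solyc03g117630. At 1 h it had 1095, 722 and 519 CPM in CS2, 1033, 1124 and 885 CPM in CS3 and 954, 1005 and 832 CPM in WT. At 0 h it had 14.6, 6.39 and 3.10 CPM in CS2, 10.9, 20.4 and 16.8 CPM in CS3 and 27.0, 22.4 and 29.1 CPM in WT. The 2 times did not overlap in any line, and at 0 h every library labelled CS2 or CS3 lay below every WT library. Its log2 fold change, 1 h over 0 h, was 6.57 (SE 0.365) in CS2, 6.001 (SE 0.346) in CS3 and 5.16 (SE 0.328) in WT. By CPM per kilobase of gene span in WT it stood at percentile 99.39 of the tested genes at 1 h, against percentile 39.94 at 0 h. In such bulk leaf RNA, more cells making a transcript and more transcript per cell cannot be told apart.

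Solyc03g117630 (chromosome 3, 62762594 to 62764558, minus strand) was the member with the widest spread between the lines under heat. At 1 h it had 616, 228 and 212 CPM in CS2, 860, 999 and 689 CPM in CS3 and 937, 961 and 812 CPM in WT. Unheated libraries had 26.8, 21.3 and 18.6 CPM in CS2, 21.5, 56.5 and 23.0 CPM in CS3 and 24.9, 24.9 and 29.5 CPM in WT. The 3 CS2 libraries were the lowest of the 9 at 1 h, and the lines overlapped at 0 h. Its log2 fold change with heat was 3.96 (SE 0.390) in CS2, 4.68 (SE 0.390) in CS3 and 5.10 (SE 0.401) in WT. With the correction for filled positions these became 4.27, 5.66 and 6.64, and the WT value then rests on counts near or above the limit of 0.95 of the length at which the correction was stopped.

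Solyc11g020040 (chromosome 11, 10183281 to 10187539, plus strand) had 657, 440 and 356 CPM in CS2, 816, 901 and 651 CPM in CS3 and 844, 948 and 724 CPM in WT at 1 h. At 0 h it had 21.1, 19.2 and 20.9 CPM in CS2, 15.1, 34.1 and 36.4 CPM in CS3 and 40.1, 35.1 and 40.9 CPM in WT. All CS2 libraries lay below all WT libraries at both times, while those of CS3 overlapped WT. Its log2 fold changes with heat were 4.56 (SE 0.274) in CS2, 4.81 (SE 0.273) in CS3 and 4.44 (SE 0.265) in WT, and corrected for filled positions 4.71, 5.07 and 4.79.

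Solyc11g066100 (chromosome 11, 55008109 to 55010659, minus strand) had 1101, 793 and 527 CPM in CS2, 1023, 1151 and 863 CPM in CS3 and 965, 1004 and 818 CPM in WT at 1 h. Without heat it had 25.8, 29.3 and 20.03 CPM in CS2, 14.6, 44.6 and 26.7 CPM in CS3 and 50.3, 54.2 and 63.7 CPM in WT. The lines overlapped WT at 1 h, and at 0 h all 6 libraries labelled CS2 or CS3 were below the 3 of WT. The log2 fold change with heat was 5.002 (SE 0.316) in CS2, 5.17 (SE 0.319) in CS3 and 4.05 (SE 0.297) in WT. Corrected for filled positions it was 5.67 in CS2, 5.996 in CS3 and 4.89 in WT.

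Solyc06g076020 (Hsc70.1; chromosome 6, 49863835 to 49866948, minus strand) had 1225, 870 and 600 CPM in CS2, 1055, 1122 and 929 CPM in CS3 and 840, 934 and 709 CPM in WT at 1 h. At 0 h it had 67.9, 42.0 and 10.4 CPM in CS2, 15.4, 42.8 and 29.9 CPM in CS3 and 34.5, 67.2 and 64.4 CPM in WT, with overlap among the lines. Its log2 fold change with heat was 4.47 (SE 0.451) in CS2, 5.16 (SE 0.472) in CS3 and 3.90 (SE 0.439) in WT, against corrected values of 5.015, 5.765 and 4.40.

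Solyc10g086410 (Hsc70.2; chromosome 10, 66013382 to 66016796, plus strand) was induced from a higher level at 0 h than the others. At 1 h it had 895, 673 and 485 CPM in CS2, 851, 877 and 731 CPM in CS3 and 663, 799 and 554 CPM in WT. Before heat it had 163, 125 and 111 CPM in CS2, 116, 214 and 111 CPM in CS3 and 122, 157 and 148 CPM in WT. The 3 lines overlapped one another at both times. Its log2 fold change with heat was 2.36 (SE 0.250) in CS2, 2.48 (SE 0.251) in CS3 and 2.24 (SE 0.249) in WT, the smallest of the 6 induced members in each line, and so it was with the corrected values of 2.601, 2.75 and 2.505.

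Of the constitutive members, Solyc11g066060 (chromosome 11, 54976279 to 54979241, plus strand) had 1276, 1001 and 658 CPM in CS2, 1079, 1042 and 884 CPM in CS3 and 711, 825 and 584 CPM in WT at 1 h. The level at 0 h was 386, 412 and 429 CPM in CS2, 374, 509 and 373 CPM in CS3 and 377, 416 and 498 CPM in WT. The 2 times did not overlap in CPM in any line, and at 1 h every CS3 library lay above every WT library. Its log2 fold change with heat was 1.25 (SE 0.201) in CS2, 1.26 (SE 0.201) in CS3 and 0.71 (SE 0.200) in WT, so that the limit of 1 was passed in both lines and not in WT. The corrected values, 1.52 in CS2, 1.49 in CS3 and 0.76 in WT, lay on the same sides of that limit. Tested directly, its response in CS2 minus that in WT was 0.54 (adjusted p = 0.188, edgeR). In CS3 the difference from WT was 0.54 (adjusted p = 0.233, edgeR), so that the response was called different from WT in neither line. In raw counts the WT libraries at 1 h (1374, 1625 and 1330) overlapped those at 0 h (1214, 1505 and 1353).

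Solyc09g010630 (chromosome 9, 4026832 to 4030371, plus strand) had 1048, 910 and 639 CPM in CS2, 959, 935 and 816 CPM in CS3 and 804, 791 and 698 CPM in WT at 1 h. Without heat there were 474, 475 and 495 CPM in CS2, 480, 662 and 522 CPM in CS3 and 543, 493 and 583 CPM in WT. The times did not overlap in CPM, but in raw counts they did in each line, with 1543 to 2252 counts at 1 h and 1583 to 1885 at 0 h. The log2 fold change with heat was 0.84 (SE 0.160) in CS2, 0.70 (SE 0.160) in CS3 and 0.50 (SE 0.160) in WT, and corrected 0.85, 0.65 and 0.46. In WT its counts at 1 h (1554 to 1590) were not above those at 0 h (1583 to 1782), at smaller library totals. In WT the call was lost when WT 0 h replicate 2 (adjusted p = 0.0616, edgeR) or WT 1 h replicate 1 (adjusted p = 0.0505, edgeR) was left out.

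Solyc01g106260 (chromosome 1, 88455248 to 88459707, plus strand) went the other way and was the tested member farthest below the counting limit. At 1 h it had 30.1, 39.2 and 43.1 CPM in CS2, 59.3, 43.0 and 46.1 CPM in CS3 and 63.6, 73.1 and 70.2 CPM in WT. At 0 h it had 88.0, 109 and 101 CPM in CS2, 89.0, 133 and 97.4 CPM in CS3 and 69.0, 94.1 and 87.6 CPM in WT. At 1 h all 6 libraries labelled CS2 or CS3 lay below the 3 of WT, and at 0 h the groups overlapped. With heat it fell by 1.37 (SE 0.176) on the log2 scale in CS2 and fell by 1.10 (SE 0.175) in CS3. The WT value was -0.28 (SE 0.170; adjusted p = 0.187, edgeR), with a 95% interval of -0.61 to 0.06. The corrected values were -1.45, -1.17 and -0.29.

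Solyc07g005820 (chromosome 7, 650450 to 653970, minus strand) was close to absent from the counts. It had 9 counts in the 18 libraries together: 1, 0 and 1 in CS2, 2, 2 and 1 in CS3 and 0, 1 and 0 in WT at 1 h, and at 0 h 1 count in CS3 replicate 3 and none in the other 8 libraries. No library held more than 2 counts, fewer than the 3 that a count of 0 allows, so no fold is given.

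Heat responses were then tested in each line. In CS2, 8 of the 9 tested members were higher and 1 was lower at 1 h than at 0 h, where 28.7% of all tested genes were higher and 26.2% lower. In CS3 the counts were again 8 higher and 1 lower, beside 26.7% and 26.5% of all tested genes. In WT 8 were higher and 0 lower, beside 24.2% and 25.2% of all tested genes, a count that the classes partly fix. For 2 of these 8, Solyc11g066060 and Solyc09g010630, the raw counts in WT overlapped between the times at 0.405 or more of their length, so that they were higher in CPM only, in libraries of lower depth. Both stayed called with the correction for filled positions (adjusted p = 0.00396 and 0.0162, edgeR), and a limit below the span was not tested. The member that fell in both lines was Solyc01g106260 in each case (adjusted p = 4.45e-06 in CS2 and 4.94e-05 in CS3, edgeR). Across the 9 members the median log2 fold change with heat was 3.96 in CS2, 4.68 in CS3 and 3.90 in WT, where the median over all tested genes was 0.00247, -0.0047 and 0.00231. Among the induced members the adjusted p in the lines was at most 4.46e-07 (edgeR). The correction for filled positions raised the log2 fold changes of all 6 induced members in each line, for Solyc04g011440 to 7.03 in CS2, 6.56 in CS3 and 5.74 in WT.

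**Figure D3:**
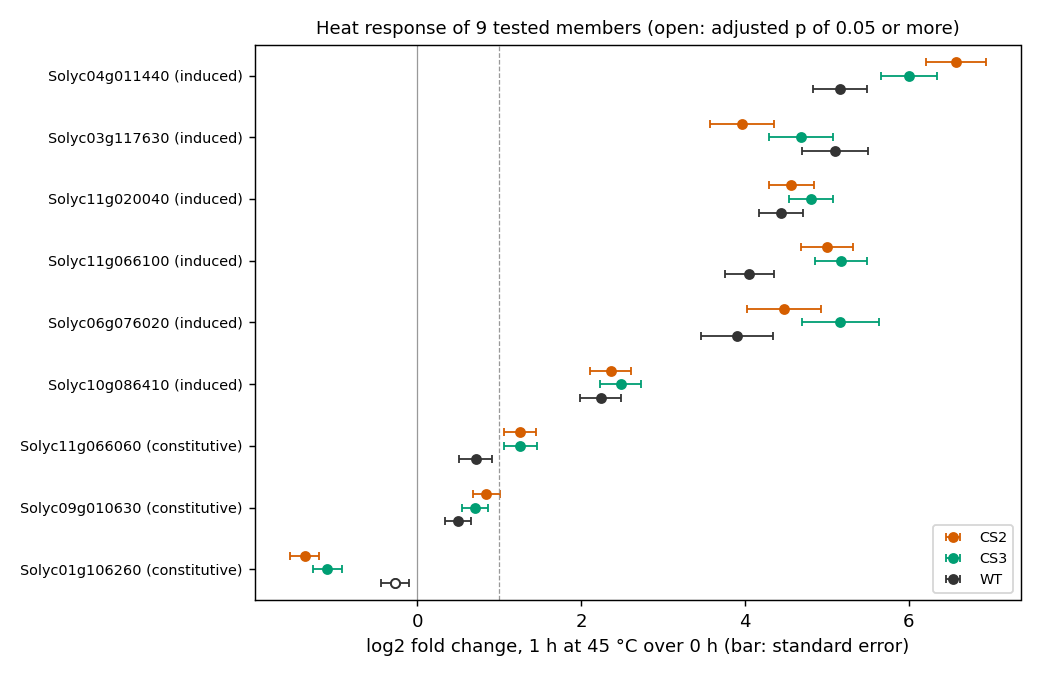
Heat response of the 9 tested members as log2 fold change, 1 h at 45 °C over 0 h, with standard errors, in CS2, CS3 and WT. The dashed line at 1 is the class limit. Induced members lie at 2.24 or above in every line, and the only open symbol, for a value that missed the threshold, is Solyc01g106260 in WT.

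To ask whether the lines altered HSP70 transcripts under heat, each was compared with WT at 1 h. In the libraries labelled CS2, 3 of 9 members were lower and 0 higher, where 15.3% of all tested genes were lower and 17.8% higher. Solyc03g117630 was lower by a log2 fold change of -1.38 (SE 0.330, adjusted p = 0.00352, edgeR), and with the correction for filled positions this became -2.60. Solyc01g106260 was at -0.85 (SE 0.184, adjusted p = 0.00154, edgeR). Solyc11g020040 was at -0.80 (SE 0.224, adjusted p = 0.0101, edgeR), and this call was lost without CS2 1 h replicate 3 (-0.62, adjusted p = 0.0514, edgeR). Corrected values were -0.89 for Solyc01g106260 and -0.99 for Solyc11g020040. The other 6 members missed the threshold, with log2 fold changes between -0.26 for Solyc04g011440 (95% interval -0.77 to 0.25) and 0.47 for Solyc11g066060 (0.08 to 0.86, adjusted p = 0.0792, edgeR). Solyc11g066060 came to pass the threshold with the correction for filled positions (0.75, adjusted p = 0.00693, edgeR) and without CS2 1 h replicate 3 (0.69, adjusted p = 0.0061, edgeR). Among the members that missed the threshold, raw counts of Solyc04g011440 and Solyc11g066100 in CS2 were all below those in WT although the CPM overlapped. Raw counts of Solyc11g066060 were all above. The median log2 fold change of the 9 members was -0.21, beside 0.04 over all tested genes.

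In the libraries labelled CS3, 0 of 9 members were called higher or lower than WT at 1 h by edgeR, beside 11.9% of all tested genes higher and 12.4% lower. Unadjusted p-values under 0.05 were found for 2 members, and DESeq2 called 1 member. The first was Solyc11g066060 at 0.50 (SE 0.199, adjusted p = 0.0718, edgeR), which 5 of 14 alternatives placed past the threshold, among them DESeq2 (adjusted p = 0.0474) and the correction for filled positions (0.71, adjusted p = 0.0144, edgeR). The second was Solyc01g106260 at -0.48 (SE 0.182, adjusted p = 0.0626, edgeR), which passed without CS3 1 h replicate 1 (-0.64, adjusted p = 0.0339, edgeR). For the 3 members with the largest heat response in WT, Solyc04g011440, Solyc03g117630 and Solyc11g020040, the log2 fold changes were 0.12 (95% interval -0.39 to 0.64), -0.09 (-0.72 to 0.54) and -0.09 (-0.52 to 0.35). Counts of Solyc03g117630 in CS3 (1625, 1649 and 1511) were all below those in WT (1811, 1892 and 1850) although the CPM overlapped, and its corrected log2 fold change was -0.61 (adjusted p = 0.235, edgeR). Counts of Solyc11g020040 and Solyc01g106260 in CS3 were also all below those in WT. Those of Solyc06g076020 and Solyc11g066060 were all above.

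The lines were set against each other as well, since both were compared with the same WT libraries. At 1 h, Solyc03g117630 was lower in the libraries labelled CS2 than in those labelled CS3, at -1.29 (SE 0.330, adjusted p = 0.0457, edgeR), and it was the only member called of 9, beside 1.31% of all tested genes lower and 1.04% higher. With the correction for filled positions it was -1.99 (adjusted p = 0.00751, edgeR). This call held in 7 of 14 alternatives, and leaving out any 1 library of the 6 except CS2 1 h replicate 1 ended it, with an adjusted p of up to 0.223 (edgeR). Solyc11g020040 was at -0.71 (SE 0.224, adjusted p = 0.1, edgeR), and at -0.99 (adjusted p = 0.0164, edgeR) without CS2 1 h replicate 1. With both lines pooled, the 6 line libraries minus the 3 WT libraries at 1 h gave -0.69 for Solyc01g106260 on the log2 scale (exact two-sided permutation test over 84 assignments, unadjusted p = 0.0119, the smallest the design allows). This was the 1 member of 9 whose line libraries all lay below those of WT at that time, as did the libraries for 15.7% of all tested genes, and no member had all of them above, beside 15.9%.

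**Figure D4:**
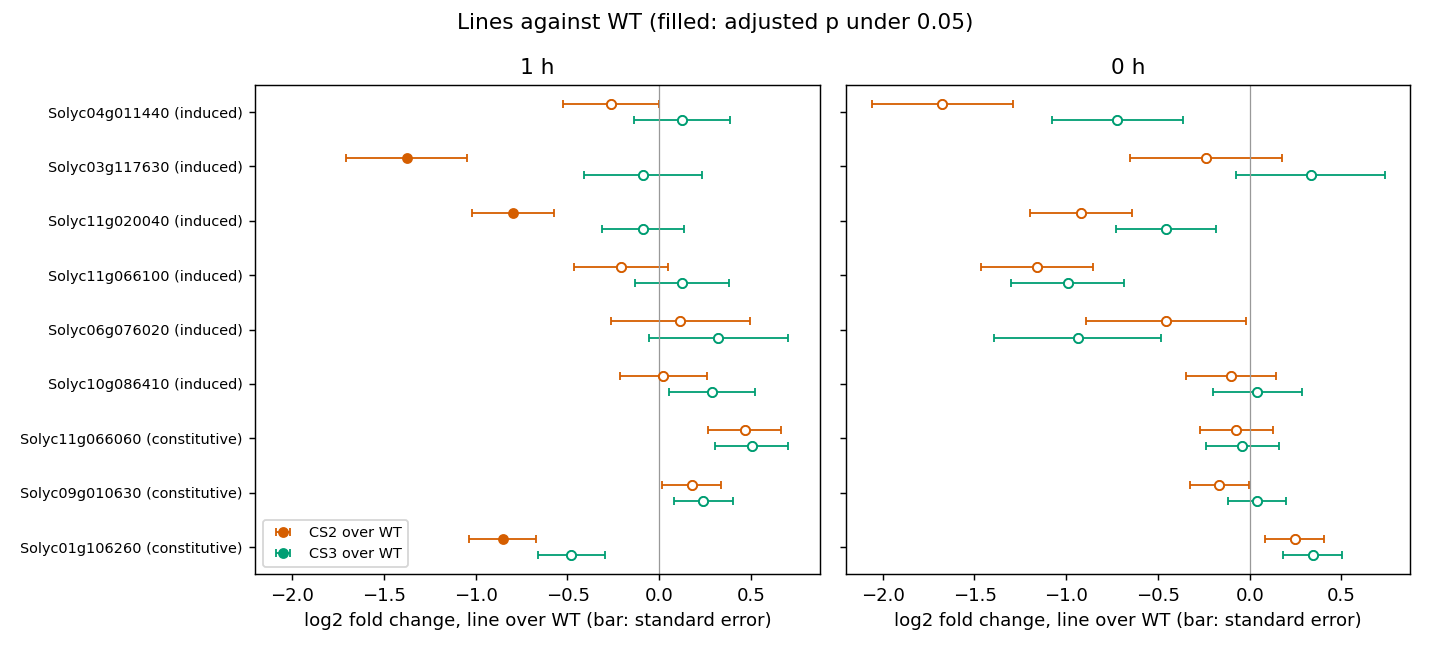
Log2 fold change of each line over WT for the 9 tested members at 1 h (left) and 0 h (right), with standard errors. Filled symbols passed the threshold: Solyc03g117630, Solyc11g020040 and Solyc01g106260 in CS2 at 1 h. At 0 h no symbol is filled, and Solyc04g011440 and Solyc11g066100 lie at -0.72 or below in both lines.

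Without heat, 0 of 9 members were called in either line by edgeR. In CS2 against WT, 0.0327% of all tested genes were higher and 0.0196% lower, and in CS3 against WT 0.137% and 0.0914%. Unadjusted p-values under 0.05 were found for 3 members in CS2 and 2 in CS3. In CS2 these were Solyc04g011440 at -1.68 (SE 0.385, adjusted p = 0.218, edgeR), Solyc11g066100 at -1.16 (SE 0.306, adjusted p = 0.501, edgeR) and Solyc11g020040 at -0.92 (SE 0.278, adjusted p = 0.850, edgeR). In each of them all CS2 libraries were below all WT libraries. DESeq2 called Solyc04g011440 lower in CS2 (adjusted p = 0.0304) and no other member in either line. Without CS2 0 h replicate 1 this gene passed the threshold with edgeR as well (-2.43, adjusted p = 0.0252). In CS3 they were Solyc11g066100 at -0.99 (SE 0.308, adjusted p = 0.206, edgeR) and Solyc01g106260 at 0.34 (SE 0.162, adjusted p = 0.385, edgeR). Over both lines, an exact two-sided permutation test over 84 assignments gave unadjusted p = 0.0119 for Solyc11g066100 and unadjusted p = 0.0476 for Solyc04g011440. These were the 2 of 9 members whose line libraries all lay below WT at 0 h, beside 1.33% of all tested genes. None had them all above WT, beside 1.57%. For the 2 constitutive members of high level the differences were near 0, at -0.07 (95% interval -0.46 to 0.32) in CS2 and -0.04 (-0.43 to 0.35) in CS3 for Solyc11g066060, and at -0.17 (-0.48 to 0.15) and 0.04 (-0.27 to 0.35) for Solyc09g010630.

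Whether the heat response itself differed was tested as an interaction, the response of a line minus that of WT. In CS2, 1 of 9 members had a larger and 1 a smaller value, beside 10.4% and 9.35% of all tested genes. Solyc01g106260 was at -1.10 (SE 0.245, adjusted p = 0.00427, edgeR), a call kept under all 20 alternatives (-1.16 when corrected). Solyc04g011440 was at 1.42 (SE 0.467, adjusted p = 0.0392, edgeR), and this call held in 9 of 20 alternatives, with an adjusted p between 0.00459 and 0.109. It was lost with DESeq2 (adjusted p = 0.0504), with the correction for filled positions (1.29, adjusted p = 0.0626, edgeR) and without any 1 of the 12 libraries except CS2 0 h replicate 1, CS2 1 h replicate 3 and WT 0 h replicate 2. For this gene CS2 against WT was at -0.26 at 1 h and at -1.68 at 0 h, neither called by edgeR. The larger response thus came with a lower level at 0 h, on 56, 24 and 11 counts in CS2, and not with a higher level at 1 h. In CS3, 0 members had a larger and 1 a smaller response, beside 4.96% and 5.3% of all tested genes. That member was again Solyc01g106260, at -0.82 (SE 0.244, adjusted p = 0.0378, edgeR), a call that held in 11 of 20 alternatives with an adjusted p of at most 0.0939 (edgeR), and it was at -0.88 when corrected. Leaving out 1 library ended it except for CS3 0 h replicates 1 and 3, CS3 1 h replicate 1 and WT 0 h replicate 2. Solyc11g066100 was at 0.95 (SE 0.398, adjusted p = 0.101, edgeR) in CS2 and 1.12 (SE 0.400, adjusted p = 0.0836, edgeR) in CS3, and it passed the threshold without CS2 1 h replicate 3 (1.18, adjusted p = 0.0308, edgeR) and without CS3 0 h replicate 2 (1.57, adjusted p = 0.0106, edgeR). Solyc03g117630 was at -1.14 (SE 0.528, adjusted p = 0.140, edgeR) in CS2, and with the correction for filled positions at -2.37 (adjusted p = 0.00851, edgeR). Without CS2 1 h replicate 1 it was at -1.83 (adjusted p = 0.00403, edgeR).

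Few partners of the family could be named, because symbols were joined only by gene order. An ER member of the family, BiP/grp78 (Solyc08g082820), rose with heat by a log2 fold change of 2.09 in CS2, 1.53 in CS3 and 1.01 in WT, and at 1 h it was higher in the libraries labelled CS2 (1.13, adjusted p = 0.000134, edgeR) and CS3 (0.72, adjusted p = 0.00757, edgeR) than in WT. The J protein gene DNAJ (Solyc04g081530) rose with heat by 1.898, 2.18 and 2.07 in CS2, CS3 and WT and was called at 1 h in neither line (adjusted p = 0.743 in CS2 and 0.186 in CS3, edgeR). BiP/grp78 reached 0.47 and DNAJ 0.545 counts per base. Corrected for filled positions, BiP/grp78 at 1 h was at 1.30 in CS2 and 0.79 in CS3 against WT, both still called. The corrected values of DNAJ were 0.15 and 0.55, neither called. Of 3 small heat shock protein genes matched, which make holdases that keep unfolded proteins soluble, 2 were tested and both rose in every line. At 1 h HSP17-6 (Solyc06g076560) was lower in CS2 than in WT by -2.10 (adjusted p = 0.000254, edgeR) and HSP17.8 (Solyc06g076520) by -1.72 (adjusted p = 0.00122, edgeR), and neither was called in CS3, where both were at -0.12. These genes reached 0.699 (HSP17-6) and 0.912 (HSP17.8) counts per base, and with the correction for filled positions the values were -2.71 and -2.77 in CS2 and -0.30 and -0.57 in CS3, still short of the threshold there (adjusted p of 0.583 and 0.280, edgeR). The genes most alike to Solyc04g011440 across the 18 libraries, in log2 CPM with 0.5 added, were Solyc01g102960 (Pearson r = 0.9955), Solyc08g078700 (0.9945) and Solyc08g062437 (0.993). These values describe libraries that fall into heated and unheated ones and share their depth, and the 3 genes reached 0.74 to 0.868 counts per base themselves.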

How the data were processed

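The deposited table holds counts, whole numbers of reads per gene, for 18 libraries, with gene lengths that are whole spans including introns. Per the labels and the table's header, the authors made strand-specific single-end libraries, trimmed reads (Trimmomatic 0.38), aligned them (Bowtie2 2.3.5 in the labels, STAR in the paper) to the M82 assembly, handled alignments with SAMtools 1.9, left out those of mapping quality below 30, removed duplicates, and counted reads by strand with featureCounts. Its options admit reads with several alignments or on overlapping genes, but the quality filter leaves out most reads that align equally well to several places. With duplicates removed, a count cannot pass about the gene's length, or that of its exons where it has introns.

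Columns were assigned to lines and times by name; 0 columns were left over. A gene entered the test with 50 or more counts in 2 or more libraries, in one fit of 6 conditions with edgeR 4.0.16 (quasi-likelihood, TMM, R 4.3.3, limma 3.58.1), with Benjamini-Hochberg adjustment over 15312 genes and a threshold of 0.05. The common dispersion was 0.0223. Standard errors are the fold change over the root of F, and intervals are normal. Single members were also compared over both lines together by exact two-sided permutation, at 1 h as planned and later at 0 h. This took the libraries of both lines as one group, and its p-values were not adjusted. With 3 libraries against 3 such a test cannot go below 0.1. Alternatives were DESeq2 1.42.0, other scaling and filters, only the libraries compared, a replicate block, a correction of each count n on L bases to -L ln(1 - n/L) with n/L held at 0.95, and leaving out each library in turn. The fit was tested on simulated data.

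The members and lists were chosen with earlier results of these data known. All 10 members are named, with the 3 tested genes most correlated with the strongest induced member and up to 4 listed chaperone genes. Lists were taken from RefSeq symbols in place of the descriptions first intended, and joined by gene order without strand (starts within 60000 bases, tolerance 1500 bases, at least 5 matching neighbours and 2 more than the next gene). No sequence was used here, so promoters were not searched.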

Additional observations from a re-analysis of the deposited data

Results flagged for a closer look

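For 4 results the difference between lines passed its own test. The heat response of Solyc04g011440 was larger in CS2 than in WT by 1.42 on the log2 scale, a call that held in 9 of 20 alternatives. Its level in CS2 against WT was at -0.26 at 1 h and at -1.68 at 0 h, neither called by edgeR. The response of Solyc01g106260 was different from WT by -1.10 in CS2 (20 of 20 alternatives) and by -0.82 in CS3 (11 of 20). Solyc03g117630 at 1 h differed between CS2 and CS3 by -1.29 (7 of 14).

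Of 18 sets of 6 line libraries, 2 held a library far from the others, where chance gives about 1 in 20 for independent sets of like libraries. These sets pooled CS2 with CS3 and shared libraries, so that rate does not hold for their count. In both flagged sets the library was CS3 0 h replicate 2. It had 662 CPM of Solyc09g010630, where the next library of either line at 0 h had 522, and 56.5 CPM of Solyc03g117630, where the next had 26.8.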

How the results depend on the processing

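Counts of members called in the heat responses, in CS2 against WT at 1 h and in CS3 against WT at 0 h stayed within 1.5 times under every alternative run. CS3 against WT at 1 h (0 called) gave 1 call with DESeq2, with library size only, with upper-quartile scaling and with the correction for filled positions, and 2 with only the libraries compared. CS2 against WT at 0 h (0 called) gave 1 with DESeq2 and 1 with no filter. The CS2 interaction (2 called) gave 1 with DESeq2. The CS3 interaction (1 called) gave 2 with no filter and 0 with only the libraries compared. CS2 against CS3 at 1 h (1 called) gave 0 with DESeq2, 2 with no filter and 0 with only the libraries compared.

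Leaving out 1 library at a time gave 9 calls in the heat response of each line and 7 to 8 in that of WT, 3 in CS2 against WT at 1 h, 0 to 1 in CS3 against WT at 1 h, 0 to 1 in CS2 against WT at 0 h, 0 in CS3 against WT at 0 h, 1 to 4 in the CS2 interaction, 0 to 1 in the CS3 interaction and 0 to 2 in CS2 against CS3. The 4 calls came without CS2 1 h replicate 3, which added Solyc11g066060 (0.76, adjusted p = 0.0294, edgeR) and Solyc11g066100 (1.18, adjusted p = 0.0308, edgeR). Of 1368 single log2 fold changes 1317 kept their side of the threshold, 30 were no longer past it, 21 came to pass it, and 0 called values changed sign. The causes were not tested.

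With the replicate block the counts were the same as without it: 9, 9 and 8 in the heat responses of CS2, CS3 and WT, 3 and 0 in CS2 and CS3 against WT at 1 h, 0 and 0 at 0 h, 2 and 1 in the interactions and 1 in CS2 against CS3. Of 45 pairs of same-numbered libraries, 14 had deviations that correlated above 0.1 (range -0.399 to 0.413). The highest were at 0 h, with 0.413 for replicate 3 of CS2 and CS3 and 0.38 for replicate 2 of CS3 and WT. Libraries of different number were not compared in this way, so these values cannot decide whether the numbers pair libraries. Levels per coding length were not run, since no coding lengths were used here. Solyc07g005820 had too few counts for a test, and why was not tested. Counts per base ran from 0.211 (Solyc11g020040) to 0.963 (Solyc03g117630) for the induced members at 1 h. Over both times they were 0.405 to 0.783 for Solyc11g066060 and 0.436 to 0.636 for Solyc09g010630. How far the counting limit held back each of these genes was not measured.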
